A study of Mus musculus with 6 samples.

Results

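Collagens are the trimeric, triple-helical proteins of the extracellular matrix, and each chain of a trimer is the product of its own gene. Their transcripts were examined in mouse embryonic stem (ES) cells after acute loss of Dcr. The members are all genes whose single symbol in the platform's annotation has the form of a collagen chain (Col, a type number, the letter a and a chain number), with no use of measured values. This gave 42 genes of 18193 in all, read by 82 probe sets of the 34945 that carried 1 symbol. The mouse gene table of RefSeq holds 44 such symbols, and the other two, Col28a1 and Col6a6, are not analysed here.

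The cells were feeder-free Dicer flox/flox ES cells kept on gelatin, and all arrays share the floxed alleles. In the Dcr KO group they were transfected with GFP and Cre recombinase, which excises the floxed segment, and in the Dcr WT group with GFP alone. RNA was taken 5 days later from a polyclonal population, on 3 arrays per group that the methods call biological triplicates. There was no group given Cre without floxed alleles, and effects of Cre and of the deletion cannot be told apart.

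Collagen chains fold as trimers in the endoplasmic reticulum with the help of dedicated hydroxylases and chaperones, leave the cell, and are trimmed and cross-linked outside it. Fibrillar collagens form the banded fibrils of connective tissue and cartilage, while type IV collagens form the sheet-like network of basement membranes, among the first matrices an embryo makes. FACIT collagens sit on fibril surfaces, and other classes make hexagonal networks, beaded filaments, anchoring fibrils or membrane-bound forms. Dicer cuts miRNA precursors into mature miRNAs, which lower the stability and translation of mRNAs that pair with their seed. In mouse ES cells many of the abundant miRNAs come from the mir-295 cluster.

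Dicer1, the floxed gene, had log2 levels of 6.32, 6.58 and 5.92 on the Dcr KO arrays, against 7.78, 7.89 and 7.16 on the Dcr WT arrays. All Dcr KO arrays lay below all Dcr WT arrays, at 39.7% of the Dcr WT level (log2 difference -1.33 ± 0.23 SE, limma adjusted p = 0.0134). Whether its probe sets lie in the excised segment was not examined. Of the markers looked at, all 10 of pluripotent cells reached log2 4. Of these 0 were called (limma adjusted p under 0.05), against 6.91% higher and 6.42% lower of all tested genes. Their summed linear level was 50076 to 51432 in Dcr KO, against 45345 to 49733 in Dcr WT. Without overlap between groups, Pou5f1 (0.38), Sox2 (0.33), Zfp42 (0.29) and Dppa5a (0.09) were higher in Dcr KO, and Tdgf1 (-0.34) and Utf1 (-0.25) lower. Such an order occurred for 17.7% (higher) and 21.2% (lower) of all tested genes. Nanog, Klf4, Esrrb and Tcl1 overlapped. Of 12 primitive and parietal endoderm markers 1 reached log2 4 (Dab2; summed level 85.0 to 88.7 in Dcr KO, against 76.7 to 84.4 in Dcr WT), with Gata4, Gata6 and Sox17 at or under 2.28 on every array. Of the same list, Thbd had 4.19, 4.26 and 3.96 on the Dcr KO arrays, against 2.34, 3.30 and 2.77 on the Dcr WT arrays, and Amn had 2.46, 2.73 and 2.38 on the Dcr KO arrays, against 3.81, 3.26 and 3.21 on the Dcr WT arrays. Both were under the minimum over the 6 arrays and were not tested. Of 10 fibroblast markers 1 reached log2 4 (Pdgfrb; 61.5 to 62.0 in Dcr KO, against 57.6 to 61.9 in Dcr WT). Untested members of that list differed by 0.72 (Postn), 0.65 (Dcn) and -0.62 (Thy1), each without overlap. Of 7 chondrocyte markers 0 reached it (37.8 to 42.5 in Dcr KO, against 47.9 to 57.5 in Dcr WT). Among them Matn3, not tested, had 3.69, 3.36 and 2.97 on the Dcr KO arrays, against 4.65, 4.1 and 4.39 on the Dcr WT arrays. The other chondrocyte differences lay between -0.39 (Acan) and 0.12 (Hapln1). Of 5 endothelial markers 1 reached log2 4, Tek, a receptor tyrosine kinase gene. Tek rose to 7.03 in Dcr KO, against 5.48 in Dcr WT (limma adjusted p = 0.00492). The summed level of the endothelial list was 123 to 169 in Dcr KO, against 49.4 to 70.4 in Dcr WT. Kdr, of the same list, had 1.97, 2.01 and 3.44 on the Dcr KO arrays, against 1.82, 1.71 and 1.66 on the Dcr WT arrays, while Cdh5, Tie1 and Emcn were at or under 1.87 on every array. The part of these marker shifts in the collagen results was not tested. In such bulk samples, a change in the number of cells of a type and a change in RNA per cell cannot be told apart.

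Most collagen chains were dim in ES cells. Only 9 of 42 genes (21.4%) averaged log2 4 or more over the 6 arrays, which is 16 on the linear scale, against 48.3% of all genes. These were the fibrillar Col1a1, Col2a1, Col5a1 and Col11a1, the basement membrane Col4a1, Col4a2 and Col4a5, the anchoring fibril chain Col7a1 and the multiplexin Col18a1. No FACIT, short-chain, beaded filament or transmembrane collagen did. Of these 9 tested genes, 3 rose in Dcr KO and 0 fell (limma, Benjamini-Hochberg adjusted p under 0.05 over all 8782 tested genes), against 6.91% and 6.42% of all tested genes. At an unadjusted p under 0.05 the counts were 4 higher and 0 lower, against 14.7% and 17.3% of all tested genes. The rises were in Col11a1, Col4a5 and Col4a1. The difference was positive for 8 of the 9 collagen genes and had a median of 0.47, against -0.02 over all tested genes. Col1a1 and Col7a1 passed the minimum only through Dcr KO, where they were higher. Of the 7 genes that averaged log2 4 or more in both groups, 3 rose and 6 had a positive difference, with a median of 0.52.

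**Figure D1:**
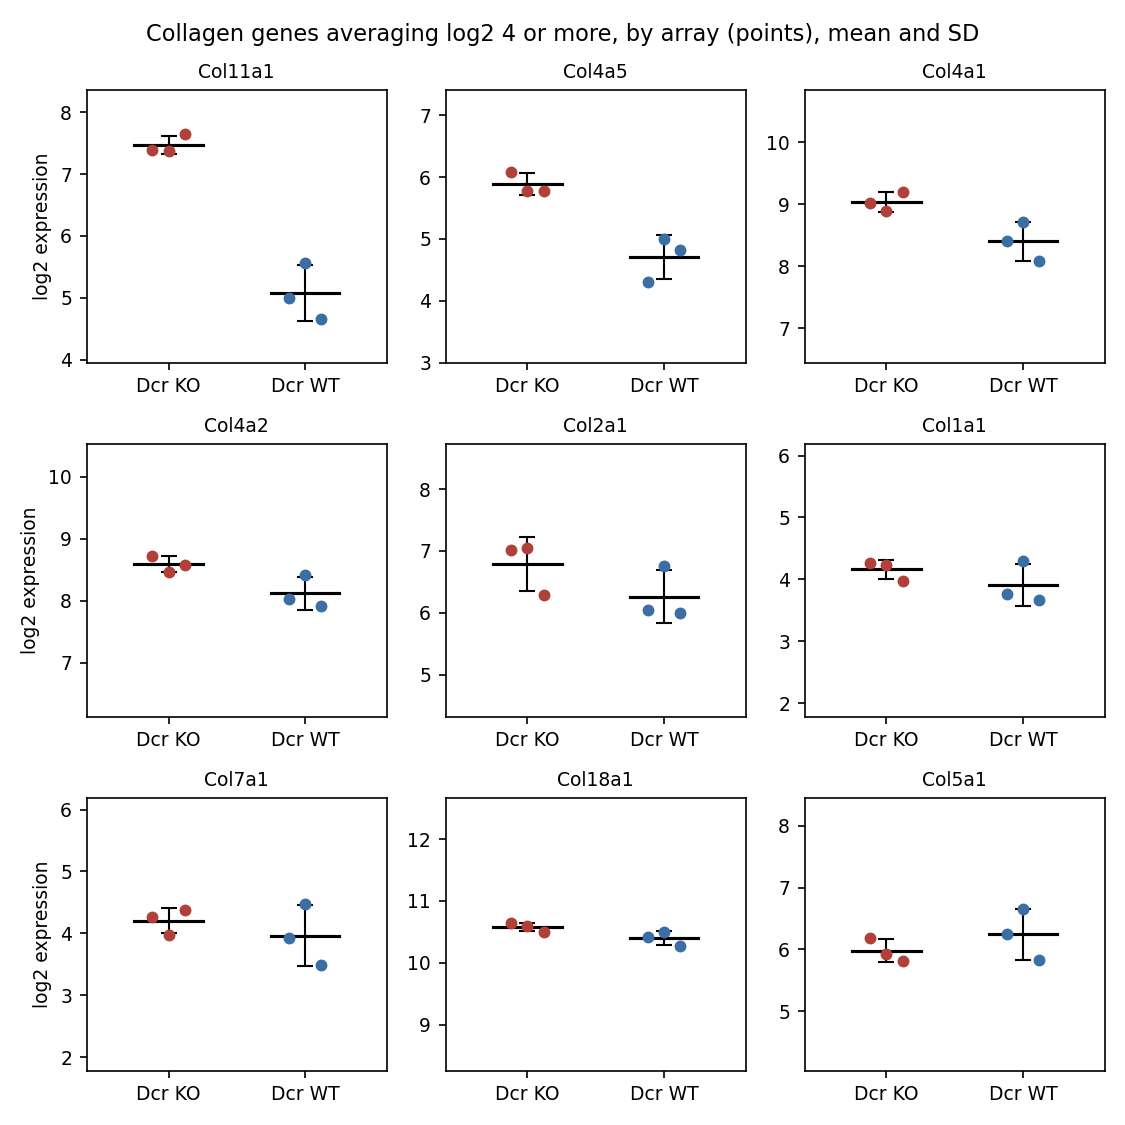
Log2 expression (vertical axis, spanning the same number of log2 units in every panel from different starting points) of the 9 collagen genes averaging log2 4 or more, in Dcr KO (left) and Dcr WT (right). Points are arrays, the long bar is the mean and the whiskers are 1 SD (n = 3). All Dcr KO points lie above all Dcr WT points for Col11a1, Col4a5, Col4a1, Col4a2 and Col18a1.

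All 3 Dcr KO arrays lay above all 3 Dcr WT arrays for 5 of the 9 genes, Col11a1, Col4a1, Col4a2, Col4a5 and Col18a1, as was the case for 17.7% of all tested genes. The reverse order occurred for 0 of the 9, against 21.2% of all tested genes. With 3 arrays per group an exact two-sided permutation test of a single gene cannot go below p = 0.1, so the calls rest on limma's model across genes.

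Col11a1 encodes a chain of type XI collagen, a minor fibrillar collagen that sets the diameter of cartilage fibrils. It had log2 levels of 7.39, 7.38 and 7.64 on the Dcr KO arrays, against 5.00, 5.56 and 4.66 on the Dcr WT arrays. The groups were well apart, with every Dcr KO array more than 1 log2 unit above the highest Dcr WT array. The log2 difference was 2.39 ± 0.22 SE, a 5.25-fold rise (limma adjusted p = 0.00182). Both of its probe sets rose, 1 by 2.77 ± 0.19 and the other by 2.02 ± 0.30 (adjusted p = 0.00349 and 0.0168 over all 18789 tested probe sets). The gene kept its call in all 15 alternative settings, with differences between 2.02 and 2.64. The second probe set, taken alone, lost its call without Dcr KO replicate 2 (adjusted p = 0.0708), Dcr KO replicate 3 (0.0547) or Dcr WT replicate 1 (0.0568).

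Type XI trimers also hold the products of Col11a2 and Col2a1. Col2a1, which makes the main collagen of cartilage, had 7.02, 7.05 and 6.28 on the Dcr KO arrays, against 6.04, 6.75 and 5.99 on the Dcr WT arrays. The groups overlapped, since Dcr KO replicate 3 was below Dcr WT replicate 2. Its difference of 0.52 ± 0.27 SE (95% interval -0.09 to 1.14) was not called (limma adjusted p = 0.217). Of the 15 alternative settings it was called in 1, with the arrays weighted by their quality (0.81, adjusted p = 0.0207). In the 6 fits that each lacked 1 array the difference was 0.388 to 0.775 and was not called (adjusted p up to 0.452). Col11a2 stayed between 2.04 and 2.22 on all arrays.

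Col5a1 encodes a chain of type V collagen, which starts fibrils and limits their width. Its levels were 6.18, 5.93 and 5.82 on the Dcr KO arrays, against 6.25, 6.66 and 5.83 on the Dcr WT arrays. It alone of the 9 genes had a negative difference, -0.27 ± 0.21 SE (95% interval -0.75 to 0.21, limma adjusted p = 0.396), with overlapping groups. That value leaned on single arrays, being -0.07 without Dcr WT replicate 2 and -0.48 without Dcr WT replicate 3. Its partner in type V trimers, Col5a2, had a mean under log2 4 and was not tested at that minimum. Its brighter probe set had 4.56, 4.31 and 5.09 on the Dcr KO arrays, against 3.20, 3.25 and 2.43 on the Dcr WT arrays. Those groups did not overlap. With no minimum on the level, Col5a2 was called higher at 1.14 ± 0.22 SE (limma adjusted p = 0.0238). These chains of type V thus gave differences of opposite sign, -0.27 for Col5a1 and 1.14 for Col5a2, and the difference between the genes was not tested. Col5a3, the remaining type V chain, stayed at or under 2.18 on every array and was not tested at the minimum. Its difference was -0.18, with all Dcr KO arrays below all Dcr WT arrays.

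Type I collagen, the main fibrillar collagen of bone and skin, is built from the products of Col1a1 and Col1a2. Col1a1 had 4.26, 4.24 and 3.98 on the Dcr KO arrays, against 3.76, 4.30 and 3.66 on the Dcr WT arrays. The groups overlapped, and the difference of 0.25 ± 0.18 SE (95% interval -0.17 to 0.67) was not called (limma adjusted p = 0.369). It was 0.12 without Dcr WT replicate 3, and the gene was under the minimum without Dcr KO replicate 1, Dcr KO replicate 2 or Dcr WT replicate 2. Its mean of 4.03 was the one nearest above the minimum, followed by 4.08 for Col7a1. Col1a2, with a gene mean of 3.21, has 3 probe sets, of which 2 passed the minimum. On the brighter by mean, Col1a2 had 3.88, 3.88 and 3.33 on the Dcr KO arrays, against 4.46, 5.46 and 4.15 on the Dcr WT arrays. On the other it had 3.74, 3.63 and 3.57 on the Dcr KO arrays, against 4.59, 5.57 and 3.96 on the Dcr WT arrays. Both had all Dcr KO arrays below all Dcr WT arrays. Their differences of -0.99 ± 0.35 and -1.06 ± 0.37 SE were not called (limma adjusted p = 0.123 and 0.125), with Dcr WT replicate 2 standing highest on both. When arrays were weighted by quality, the second was called lower (-0.97, adjusted p = 0.0327) and the first was not (-0.72, adjusted p = 0.0695). Both passed the minimum only through Dcr WT. They were the only tested collagen probe sets below zero at an unadjusted p under 0.05.

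Col3a1 makes the sole chain of type III collagen, found with type I in soft and vascular tissue. Its gene mean of 3.60 fell short of the minimum, but its Dcr KO mean of 4.21 passed it, against 2.99 in Dcr WT. Its 2 probe sets differed. The brighter had 5.79, 6.34 and 6.62 on the Dcr KO arrays, against 3.41, 5.04 and 3.40 on the Dcr WT arrays. All Dcr KO arrays were above all Dcr WT arrays, with a difference of 2.30 ± 0.47 SE (limma adjusted p = 0.035). It passed the minimum only through Dcr KO, with a mean of 6.25, against 3.95 in Dcr WT, and the gene as a whole was not called with no minimum (adjusted p = 0.0563). The dimmer stayed at or under 2.50 on every array and showed a difference of 0.14. Without Dcr WT replicate 2 the brighter probe set gave 2.85 (adjusted p = 0.00765), whereas without any other single array it lost its call (2.03 to 2.53, adjusted p = 0.0636 to 0.109). In the RefSeq table Col3a1 and Col5a2 are neighbours on mouse chromosome 1, and their gene differences were 1.22 and 1.14.

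**Figure D2:**
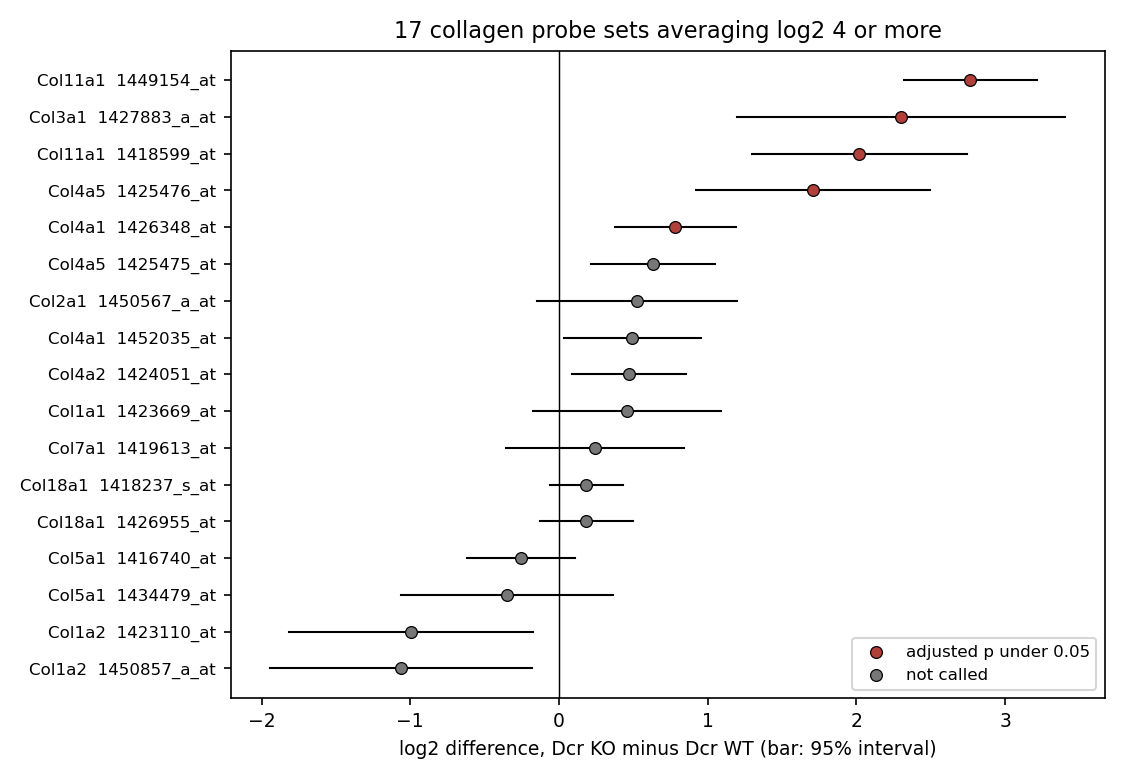
Log2 difference, Dcr KO minus Dcr WT (horizontal axis), of the 17 collagen probe sets averaging log2 4 or more, with bars for the 95% interval from limma. The 5 red points (2 of Col11a1, 1 each of Col3a1, Col4a5 and Col4a1) passed an adjusted p of 0.05, and both Col1a2 probe sets lie at the bottom, near -1.

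At the level of single probe sets, 17 of 82 passed the minimum, from 11 genes. Of these 5 were higher in Dcr KO, from 4 genes, against 4.69% of all tested probe sets, and 0 were lower, against 3.07%. Besides the 3 genes called at the gene level this holds Col3a1, whose probe set is not among those tested when the minimum is set on the Dcr WT arrays, which leaves 4 higher. Of the 17, 3 passed the minimum only through Dcr KO (of Col3a1, Col4a5 and Col7a1) and 2 only through Dcr WT (both of Col1a2). The median difference of the 17 was 0.47, against -0.01 over all tested probe sets, and 13 of them were positive. The count of 5 was 2 without Dcr KO replicate 1, Dcr WT replicate 1 or Dcr WT replicate 3, and 1 without Dcr KO replicate 2 or Dcr KO replicate 3. Without Dcr WT replicate 2 it remained 5.

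Of the 6 basement membrane chains, 3 passed the minimum (Col4a1, Col4a2 and Col4a5) and 3 did not. Col4a1 and Col4a2 products assemble together in the type IV network of nearly all basement membranes. Col4a1 had 9.02, 8.89 and 9.20 on the Dcr KO arrays, against 8.41, 8.71 and 8.08 on the Dcr WT arrays. The groups did not overlap, with Dcr KO replicate 2 the nearest to Dcr WT replicate 2. The difference was 0.64 ± 0.17 SE, a 1.56-fold rise (limma adjusted p = 0.0456). Its probe sets gave 0.78 ± 0.17 on the dimmer (adjusted p = 0.0428) and 0.49 ± 0.19 on the brighter (adjusted p = 0.157). The gene's call was close to the threshold: of the 6 fits that each lacked 1 array, it was called in 1, without Dcr WT replicate 2 (0.79, adjusted p = 0.0293). In the other 5 the difference was 0.48 to 0.71 (adjusted p = 0.0823 to 0.114).

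Col4a2 had 8.73, 8.47 and 8.58 on the Dcr KO arrays, against 8.02, 8.42 and 7.92 on the Dcr WT arrays. All Dcr KO arrays were above all Dcr WT arrays, the nearest pair being 8.47 in Dcr KO replicate 2 and 8.42 in Dcr WT replicate 2. The difference was 0.47 ± 0.15 SE (95% interval 0.13 to 0.82) and was not called (limma adjusted p = 0.0742). It was called in 2 of the 15 alternative settings, without Dcr WT replicate 2 (0.62, adjusted p = 0.0311) and when arrays were weighted by quality (0.41, adjusted p = 0.0486). Without any other single array it was 0.373 to 0.535 (adjusted p = 0.124 to 0.19). In the RefSeq table Col4a1 and Col4a2 lie on opposite strands of mouse chromosome 8 with overlapping ranges.

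Col4a1 and Col4a2 are in the study's list of predicted mir-295 cluster targets. That list was chosen in part by the rise on these arrays, so membership is not independent evidence of their direction. No other collagen chain is on it, and Col11a1 and Col4a5 are thus absent. The list also required a rise in cells lacking the cluster. Of the processing genes named below, Mmp14, Lox and Sparc are on it. The study built the list on the seed AAGUGC. The mature sequences of a pair of cluster members, from RefSeq (GRCm38.p6), are shown with bases 2 to 8 in capitals, which contain that seed and the base after it:
mmu-miR-294-3p: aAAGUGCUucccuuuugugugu
mmu-miR-295-3p: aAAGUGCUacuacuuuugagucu
The bases in capitals are the same in both, while some other cluster members differ at base 8. Sites for the seed in collagen transcripts were not searched, and no miRNA was measured on these arrays.

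Col4a5 encodes a chain that assembles with the products of Col4a3 and Col4a4, as in the kidney filter, or with that of Col4a6. It had 6.09, 5.78 and 5.78 on the Dcr KO arrays, against 4.31, 5.00 and 4.82 on the Dcr WT arrays. The groups were apart, and the difference of 1.17 ± 0.19 SE was a 2.25-fold rise (limma adjusted p = 0.011). The call held in all 15 alternative settings, with differences between 0.97 and 1.71. Its brighter probe set had 7.43, 7.45 and 7.30 on the Dcr KO arrays, against 4.87, 6.22 and 5.97 on the Dcr WT arrays, with a difference of 1.71 ± 0.33 SE (adjusted p = 0.0317). That call was kept without Dcr WT replicate 1 (1.30, adjusted p = 0.0286) or Dcr WT replicate 2 (1.97, 0.028), and lost without any 1 of the other 4 arrays (adjusted p = 0.0804 to 0.105). The dimmer showed 0.63 ± 0.18 SE and was not called (adjusted p = 0.0747). Its partner chains stayed dim, with Col4a3, Col4a4 and Col4a6 between 1.45 and 2.51 on all arrays and differences of 0.01, 0.05 and -0.04. Col4a6 is the neighbour of Col4a5 on the X chromosome, on the opposite strand.

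**Figure D3:**
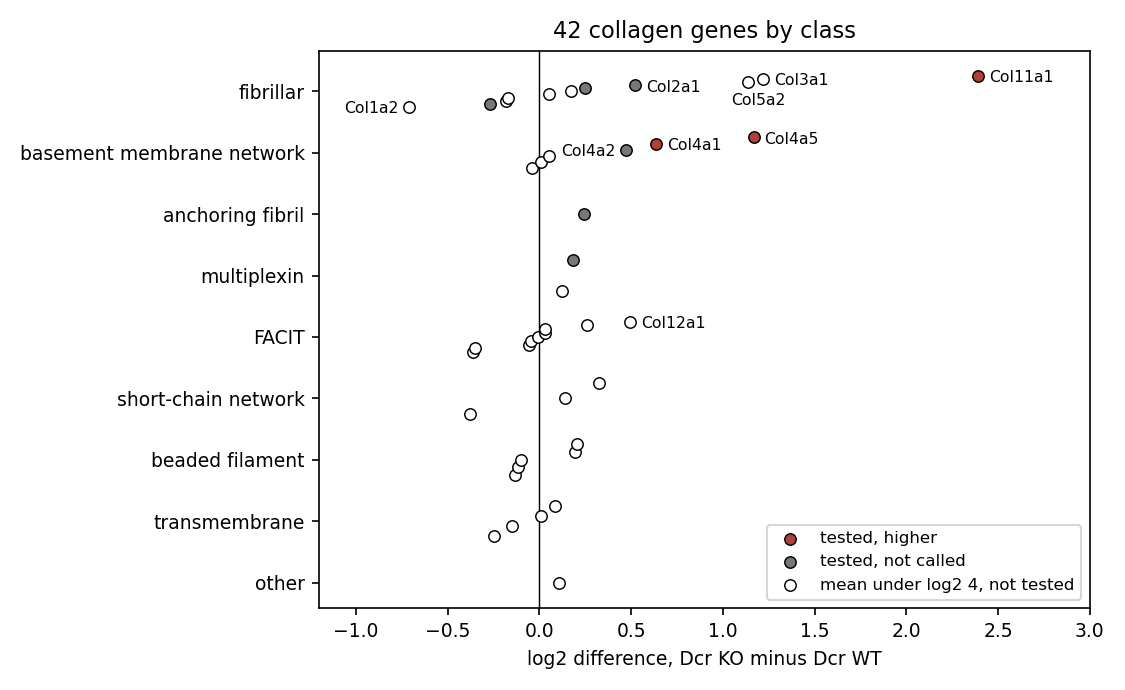
Log2 difference, Dcr KO minus Dcr WT (horizontal axis), of all 42 collagen genes, one point per gene, grouped by collagen class (vertical axis). Filled points are the 9 genes averaging log2 4 or more, red for the 3 that rose. Open points are the 33 dimmer genes, of which Col3a1, Col5a2 and Col1a2 lie farthest from 0.

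Col18a1, whose product gives rise to endostatin, had log2 levels of 10.64, 10.59 and 10.50 on the Dcr KO arrays, against 10.42, 10.49 and 10.27 on the Dcr WT arrays. The groups did not overlap by a narrow margin, and the difference of 0.18 ± 0.10 SE (95% interval -0.06 to 0.42) was not called (limma adjusted p = 0.261). Both of its probe sets gave 0.18. Col7a1, the chain of the fibrils that anchor epithelium to the tissue beneath, had 4.26, 3.98 and 4.37 on the Dcr KO arrays, against 3.92, 4.47 and 3.49 on the Dcr WT arrays. The groups overlapped, and its difference was 0.24 ± 0.24 SE (95% interval -0.30 to 0.79, limma adjusted p = 0.51). That value was 0.01 without Dcr WT replicate 3 and 0.50 without Dcr WT replicate 2.

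The other 33 genes had means between 1.46 and 3.77, with a median of 2.14, and 30 were under log2 3. A low value says that the gene was not measurable above the minimum, and not that it was silent. Nearest below the minimum were Col16a1, a FACIT chain, at 3.77, then Col3a1 and Col1a2. Col16a1 had 3.67, 3.54 and 3.57 on the Dcr KO arrays, against 4.17, 4.09 and 3.57 on the Dcr WT arrays, so the groups overlapped. For 24 of the 33 the difference was within 0.25 of no change, and all lay between -0.71 (Col1a2) and 1.22 (Col3a1). By class, the differences were -0.36 to 0.50 for the 9 FACIT genes, -0.38 to 0.32 for the 3 short-chain genes, -0.13 to 0.20 for the 5 beaded filament genes and -0.25 to 0.09 for the 4 transmembrane genes. With no minimum on the level, Col5a2 was the only one of the 33 to be called (limma), and Col4a1 was no longer called (adjusted p = 0.0557).

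To show what lies in front of the genes with the largest differences among the called probe sets, the 100 bases before the earliest annotated start in RefSeq (GRCm38.p6, plus strand, 5′ to 3′) are given for Col11a1 (chr3:114030379-114030478), Col4a5 (chrX:141475270-141475369) and Col3a1 (chr1:45311438-45311537), with matches to the motifs below in capitals:
Col11a1: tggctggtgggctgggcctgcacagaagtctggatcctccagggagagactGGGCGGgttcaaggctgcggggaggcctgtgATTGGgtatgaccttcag
Col4a5: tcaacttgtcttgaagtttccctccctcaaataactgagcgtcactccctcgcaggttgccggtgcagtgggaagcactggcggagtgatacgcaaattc
Col3a1: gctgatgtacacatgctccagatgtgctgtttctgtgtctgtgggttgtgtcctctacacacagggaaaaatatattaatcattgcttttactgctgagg
The capitals in Col11a1 are a GC box (GGGCGG) and a CCAAT box read on the other strand (ATTGG). The stretches of Col4a5 and Col3a1 held no match within the 100 bases shown. Motifs were searched on both strands of 300-base windows (250 bases before and 50 after a start), of which 36 belonged to 33 collagen genes. GGGCGG was in 61.1% of the collagen windows and 35.7% of all 32851 windows. CCAAT was in 36.1% and 37.4%, TATAAA in 13.9% and 13.6%, and TGANTCA in 2.8% and 7.8%. None of the 4 motifs contains another. Of the 8 windows of tested collagens, which came from 7 genes, 7 held GGGCGG, 6 held CCAAT and 0 held TATAAA or TGANTCA. Col4a5, whose printed stretch held no match, was among the genes with GGGCGG and among those with CCAAT. These are matches of letters and say nothing about binding.

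The tested collagens varied together among the Dcr WT arrays. Dcr WT replicate 2 was the highest Dcr WT array for 9 of the 9 tested collagens, against 35.1% of all tested genes, and Dcr WT replicate 3 was the lowest for 8 of 9, against 31.6%. Relative to their group mean, the 9 genes had median deviations of 0.10, -0.09 and -0.08 on Dcr KO replicates 1 to 3, and of -0.07, 0.39 and -0.27 on Dcr WT replicates 1 to 3. Over all tested genes those medians lay between -0.01 and 0.01. The SD was larger in Dcr WT for 8 of the 9 collagens, against 58.6% of all tested genes, with a median of 0.16 in Dcr KO and 0.36 in Dcr WT. Leaving out the highest Dcr WT array raises these differences by construction, and leaving out the lowest reduces them. Without Dcr WT replicate 2 the median difference was 0.70 over the 8 collagens then tested, and 4 rose, Col4a2 being added. Without Dcr WT replicate 3 it was 0.37 over 9 collagens, and 2 rose. The source of this spread was not tested.

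**Figure D4:**
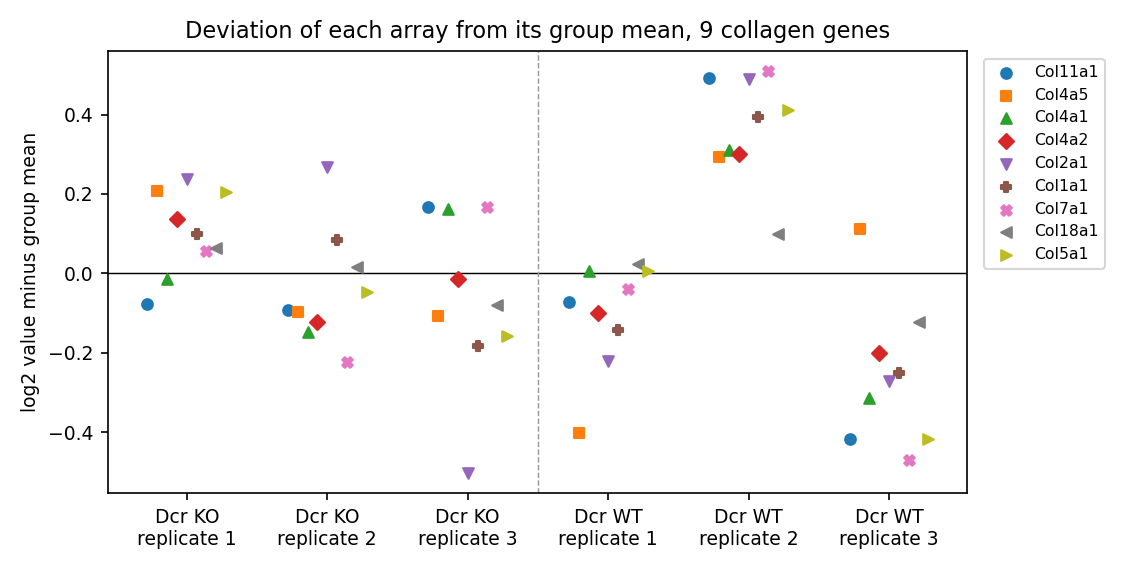
Deviation of each array from its group mean, in log2 units (vertical axis), for the 9 tested collagen genes (symbols) on the 3 Dcr KO arrays (left of the dashed line) and the 3 Dcr WT arrays (right). All 9 genes lie above 0 on Dcr WT replicate 2, and 8 of 9 lie below 0 on Dcr WT replicate 3.

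Genes that fold, export, trim, bind or break down collagen moved in both directions. Of 79 genes in this list 74 were measured and 43 tested, of which 5 rose and 5 fell in Dcr KO (limma adjusted p under 0.05, against 6.91% and 6.42% of all tested genes), with a median difference of 0.14. Among the 15 tested genes of folding and modification, 3 rose and 1 fell. Crtap and P3h1, which work in one complex that hydroxylates proline at its 3 position, both rose. Crtap had 10.04, 10.11 and 10.14 on the Dcr KO arrays, against 9.42, 9.66 and 9.40 on the Dcr WT arrays, and P3h1 had 6.16, 6.10 and 6.22 on the Dcr KO arrays, against 5.57, 5.81 and 5.76 on the Dcr WT arrays. Neither overlapped between groups. Their differences were 0.60 ± 0.11 and 0.45 ± 0.11 SE (adjusted p = 0.0149 and 0.0326). Ppib, the third member of the complex, showed -0.04 (adjusted p = 0.825). P4ha2, a catalytic subunit of the prolyl 4-hydroxylases that stabilise the triple helix, had 6.47, 6.07 and 6.0 on the Dcr KO arrays, against 6.90, 7.39 and 6.85 on the Dcr WT arrays. It fell by 0.87 ± 0.18 SE on the log2 scale (adjusted p = 0.0241), whereas its paralog P4ha1 (-0.12, adjusted p = 0.803) and the shared subunit P4hb (-0.05, adjusted p = 0.739) were not called. Tmem38b, an ion channel of the endoplasmic reticulum, was called at 0.52 (adjusted p = 0.0397), but 1 of its 4 probe sets gave 2.28 and the others 0.08, -0.08 and -0.19. Serpinh1, the collagen chaperone HSP47, had a difference of 0.39 (adjusted p = 0.0568) and Pdia3 0.33 (adjusted p = 0.103).

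Of the 14 tested export genes 1 fell and 0 rose, against 6.42% and 6.91% of all tested genes, with a median difference of 0.16. Sar1a, a small GTPase that starts the budding of COPII vesicles, had 8.89, 9.12 and 9.10 on the Dcr KO arrays, against 9.50, 9.48 and 9.56 on the Dcr WT arrays (log2 difference -0.47 ± 0.10 SE, limma adjusted p = 0.0271). Its paralog Sar1b showed -0.14 (adjusted p = 0.444). Cul3 and Klhl12, parts of the ubiquitin ligase that enlarges these vesicles for procollagen, showed 0.44 (adjusted p = 0.0711) and -0.32 (adjusted p = 0.106). Trappc2 and Sec31a, also of the export list, showed 0.34 (adjusted p = 0.0964) and 0.23 (adjusted p = 0.179). Among 4 trimming and cross-linking genes, Pcolce2, an enhancer of the protease that cuts the procollagen C-terminus, rose to a mean of 9.37 in Dcr KO, against 8.84 in Dcr WT (log2 difference 0.53 ± 0.14 SE, adjusted p = 0.0462). It lost that call in all 6 fits that lacked 1 array (adjusted p up to 0.121). Its relative Pcolce (0.48, adjusted p = 0.0629) and that protease itself, Bmp1 (0.51, adjusted p = 0.0679), were not called. Of the cross-linking enzymes in this list only Loxl1 was tested, and it showed -0.02 (adjusted p = 0.946). Lox, a cross-linking enzyme named here after its values were seen, was under the minimum over the 6 arrays and was not tested. It had 4.0, 4.49 and 5.52 on the Dcr KO arrays, against 3.10, 3.24 and 3.09 on the Dcr WT arrays, with no overlap. The 2 tested receptors, Itgb1 (0.36, adjusted p = 0.192) and Ddr1 (0.14, adjusted p = 0.409), were not called either.

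Among 5 tested breakdown genes 1 rose and 2 fell, against 6.91% and 6.42% of all tested genes. Mmp14, a membrane-bound collagenase that activates Mmp2, had 6.64, 6.55 and 6.71 on the Dcr KO arrays, against 6.32, 6.05 and 6.01 on the Dcr WT arrays (log2 difference 0.51 ± 0.12 SE, limma adjusted p = 0.0311). Mmp2, a gelatinase that also cuts type IV collagen, had 5.99, 6.0 and 6.45 on the Dcr KO arrays, against 6.96, 6.92 and 6.69 on the Dcr WT arrays (-0.71 ± 0.15 SE, adjusted p = 0.025). These genes moved in opposite directions, and neither overlapped between groups. Pepd, which splits proline-containing dipeptides left by collagen breakdown, fell by 0.45 ± 0.12 SE (adjusted p = 0.0432). Of the 3 tested matrix partners, Bgn, a small proteoglycan that binds fibrils, had 4.08, 4.01 and 3.56 on the Dcr KO arrays, against 4.49, 4.81 and 4.72 on the Dcr WT arrays. It fell by 0.79 ± 0.16 SE (adjusted p = 0.0213), having passed the minimum only through Dcr WT, and with a minimum of log2 5 the list's lower count was 4. Fn1 (0.54, adjusted p = 0.0629) and Sparc (0.28, adjusted p = 0.171) were not called. These calls are less firm than those of Col11a1 and Col4a5: without Dcr KO replicate 2, none of the 10 was called (0 higher and 0 lower). Without Dcr KO replicate 1 the counts over the list were 1 higher and 2 lower, without Dcr KO replicate 3 they were 1 and 4, and without Dcr WT replicates 1, 2 or 3 in turn they were 4 and 3, 3 and 1, and 1 and 0.

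**Figure D5:**
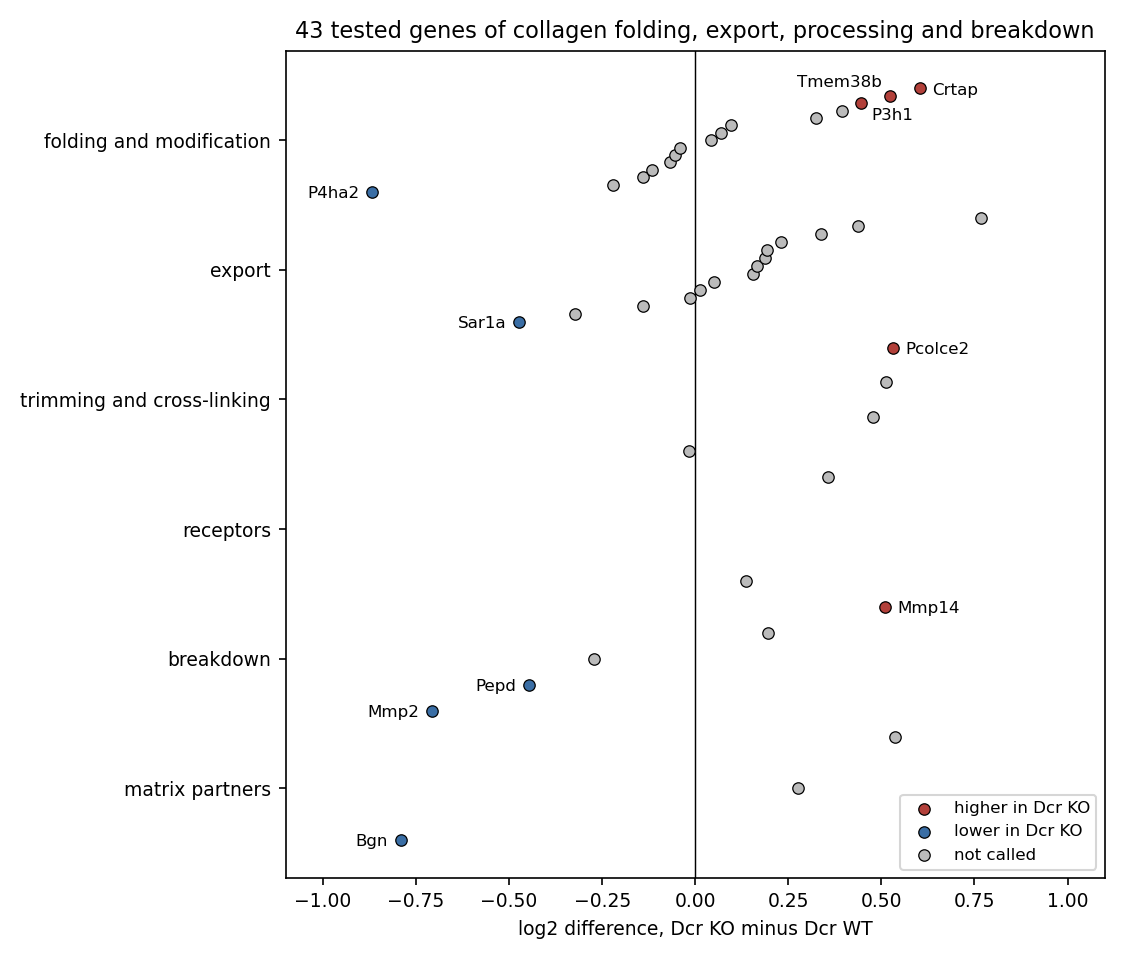
Log2 difference, Dcr KO minus Dcr WT (horizontal axis), of the 43 tested genes of collagen folding, export, trimming, binding and breakdown, one point per gene, by group of function (vertical axis). The 5 red points rose, the 5 blue points fell, and grey points were not called by limma.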

How the data were processed

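Each of the 45037 values per array is log2 expression of a probe set, as deposited by the authors for 6 arrays. Tools named in the submitters' notes are GCRMA 2.20.0 and R 2.11.1. For 1 comparison the study normalized acute and chronic samples jointly. Whether the deposited values come from that run is not stated. All columns of values were used (0 left out). GCRMA shrinks dim values, so that differences of dim genes may be understated. Symbols came from the platform annotation, and 932 probe sets with several and 9160 with none were not used. A gene's value is the mean log2 value of its probe sets.

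Dcr KO was compared with Dcr WT with limma 3.58.1 (lmFit and eBayes, under R 4.3.3) over features averaging log2 4 or more, with Benjamini-Hochberg adjustment over all of them and a threshold of 0.05. Intervals are 95%. On simulated arrays with 200 changed genes among 8782, limma recovered 0.5% of 1.2-fold, 39.2% of 1.5-fold, 75.6% of 2-fold and 97.5% of 4-fold changes. The simulation gave every gene independent noise and changed fewer genes than the 607 higher and 564 lower called here. These shares are therefore not the power of the comparison itself. The number of arrays limits the precision.

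Collagen genes at the minimum are named in full, and dimmer ones as chain partners, where 1 group's mean reached log2 4, or nearest below it. Processing genes past the threshold are named, with up to 4 more per group of function. Other genes were named after their values were seen. Members and lists were chosen with earlier results of these data known. Alternatives were other minimums, no minimum, the brightest probe set, quantile and median scaling, an intensity trend, array weights, a replicate block and leaving out each array.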

Additional observations from a re-analysis of the deposited data

How the results depend on the processing

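The rises of Col11a1 and Col4a5 kept their direction and their call in all 15 alternatives. Of the 9 tested collagen genes, 0 changed sign in the alternatives where they were tested. Changes of sign of single processing genes were not tracked over all alternatives. The brightest of the Tmem38b probe sets gave -0.08, against 0.52 for the gene. Col4a1 was called in 7 of 15 and lost its call with no minimum on the level, with the brightest probe set of each gene, with the replicate block and without any 1 array but Dcr WT replicate 2. With no minimum on the level the median collagen difference was 0.05, over all 42 genes, most of them dim. With the brightest probe set of each gene 11 collagen genes were tested, and the 3 higher were Col11a1, Col4a5 and Col3a1. The genes added were Col3a1 (2.30, limma adjusted p = 0.0159) and Col1a2 (-0.99, adjusted p = 0.0772, not called). They passed the minimum only through Dcr KO and only through Dcr WT, respectively. With the brightest probe set 3 processing genes were lower, and with median scaling 3 were higher. Array weights, which count noisier arrays for less, gave 1003 genes higher and 999 lower, 5 collagen genes higher, 1 collagen probe set lower and 11 processing genes higher. The cause was not tested. When 1 array was left out at a time, 220 to 465 genes were higher and 137 to 376 lower. The collagen genes at log2 4 were 8 to 9, with 2 to 4 higher, 0 lower and a median of 0.37 to 0.70. The collagen probe sets were 1 to 5 higher and 0 lower, and the processing genes 0 to 4 higher and 0 to 4 lower. These fits have fewer arrays.

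The labels number the replicates 1 to 3 in both groups. Whether same-numbered arrays were prepared together is not stated. Their deviations from the group means had correlations of -0.22, -0.02 and 0.03, and those of differently numbered arrays lay between -0.23 and 0.31. With 3 arrays per group these values cannot settle whether the arrays were paired. With the replicate number as a block, 354 genes were higher and 243 lower, 1 collagen probe set was higher, and 1 processing gene was higher and 2 lower. Quantile and median scaling moved the median of all genes to -0.04 each, from -0.02 as deposited.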
